A study of Mus musculus with 8 samples.

Results

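The genes described here are 7 transcription factors of naive and resting T cells, Tcf7, Lef1, Satb1, Bach2, Foxp1, Foxo1 and Id3, taken by symbol from the 24016 genes of a deposited RNA sequencing table of mouse spleen CD4+ T cells. All 7 symbols were found, and all 7 passed the filter on low values in every library. The cells were sorted by a green fluorescent protein (GFP) reporter of Foxp3, the factor that defines regulatory T (Treg) cells, which both kinds of mice carry. The 4 groups of 2 libraries were monoclonal Treg (reporter-positive) and monoclonal non-Treg (reporter-negative) cells of NOD.TCRab.FoxP3GFP.Rag-/- mice, and polyclonal Treg and polyclonal non-Treg cells of NOD.FoxP3GFP mice. The monoclonal mice carry a given αβ T cell receptor and lack Rag, the recombinase that assembles receptors, so T cells use the receptor supplied and B cells are not expected to form. Effects of the strain, of Rag and of the receptor cannot be told apart between the mice. The labels call the monoclonal cells NT, which they do not expand, and the polyclonal cells WT. Age, treatment and any pooling of animals are not given in the sources used here. Whether libraries A and B of a group came from separate mice is not stated either, and the p-values therefore rest on a spread that could be technical.

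T cells that have not met their antigen stay small, recirculate and do not divide, and a set of transcription factors keeps that state. Tcf7 and Lef1 encode DNA-binding partners of β-catenin, Satb1 a chromatin organiser, Bach2 a repressor of effector genes, Foxp1 and Foxo1 forkhead factors of quiescence and homing, and Id3 an inhibitor of the E proteins that act in lymphocyte development. Activation through the receptor lowers most of these factors in conventional T cells. Treg cells exist in a resting form that keeps many of them and an activated form that keeps fewer, and Satb1 is a known target of repression by Foxp3.

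The promoter windows of 5 members are shown. Lef1 had Treg effects that were close in both kinds of mice. Satb1, Bach2 and Foxp1 had effects that differed between the mice, and Id3 was the member called higher in Treg cells of both. Tcf7, whose effects also differed, and Foxo1 are not shown. Each window comes from RefSeq on GRCm38.p6 at the most upstream annotated start, from 250 bases before to 50 after it. The members' expression values were counted on another build, mm9. The windows lie at chr3:131110047-131110346 on the plus strand (Lef1), chr17:51833241-51833540 on the minus strand (Satb1), chr4:32417185-32417484 on the plus strand (Bach2), chr6:99520944-99521243 on the minus strand (Foxp1) and chr4:136143572-136143871 on the plus strand (Id3). Capitals mark matches to any of 4 motifs searched on both strands: TCF/LEF (CTTTGA or CTTTGT), forkhead (GTAAACA), E-box (CAGCTG or CAGGTG) and BACH/AP-1 (TGACTCA). No marked matches overlap. The table lists 4 starts for Lef1, 5 for Satb1, 3 for Foxp1 and 1 each for Bach2 and Id3. Which start these cells use was not examined.
Lef1: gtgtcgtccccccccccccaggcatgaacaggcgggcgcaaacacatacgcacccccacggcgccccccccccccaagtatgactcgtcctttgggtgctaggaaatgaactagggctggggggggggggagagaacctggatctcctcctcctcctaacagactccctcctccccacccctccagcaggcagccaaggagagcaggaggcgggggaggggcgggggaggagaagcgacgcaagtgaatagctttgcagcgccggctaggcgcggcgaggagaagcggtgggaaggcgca
Satb1: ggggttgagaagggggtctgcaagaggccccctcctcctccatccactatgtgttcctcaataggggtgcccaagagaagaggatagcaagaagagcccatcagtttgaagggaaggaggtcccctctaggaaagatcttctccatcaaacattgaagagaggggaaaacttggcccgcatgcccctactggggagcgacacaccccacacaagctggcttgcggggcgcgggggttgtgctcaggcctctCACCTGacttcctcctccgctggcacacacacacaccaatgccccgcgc
Bach2: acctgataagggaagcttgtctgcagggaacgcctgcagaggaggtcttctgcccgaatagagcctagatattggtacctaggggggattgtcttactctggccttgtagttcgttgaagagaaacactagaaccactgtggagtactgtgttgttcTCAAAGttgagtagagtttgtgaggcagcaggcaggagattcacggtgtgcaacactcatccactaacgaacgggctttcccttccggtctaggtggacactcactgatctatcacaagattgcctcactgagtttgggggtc
Foxp1: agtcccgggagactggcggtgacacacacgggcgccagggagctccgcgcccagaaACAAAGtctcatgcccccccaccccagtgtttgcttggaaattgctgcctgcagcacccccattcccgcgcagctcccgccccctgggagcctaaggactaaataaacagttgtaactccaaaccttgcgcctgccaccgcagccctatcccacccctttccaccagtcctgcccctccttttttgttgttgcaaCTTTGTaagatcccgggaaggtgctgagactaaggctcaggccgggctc
Id3: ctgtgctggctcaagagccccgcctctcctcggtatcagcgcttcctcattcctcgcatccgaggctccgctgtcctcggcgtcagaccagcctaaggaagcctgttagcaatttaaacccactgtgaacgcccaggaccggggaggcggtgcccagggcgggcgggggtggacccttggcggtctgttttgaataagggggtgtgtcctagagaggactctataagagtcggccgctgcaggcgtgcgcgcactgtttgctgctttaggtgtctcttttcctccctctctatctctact
The Satb1 window holds an E-box, the Bach2 window a TCF/LEF match and the Foxp1 window 2 TCF/LEF matches, and the Lef1 and Id3 windows hold none of the 4. The windows at other starts differ: Lef1 has E-boxes at 2 of its other starts and 3 TCF/LEF matches at its most downstream start. Among all 32851 windows of the table, 31.2% held a TCF/LEF match, 32.9% an E-box, 3.65% the forkhead motif and 5.20% the BACH/AP-1 motif, so these matches are a description of the letters and no more. G and C made up 67.3% of the Lef1 window, 60.3% of that of Foxp1 and 50.3% of that of Bach2, against a median of 52.7% over all windows.

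The libraries held 14076330 to 19722321 reads assigned to genes, so a count of 0 allows up to 0.152 to 0.213 CPM (reads of a gene per 1000000 assigned reads), for counting error only. The lowest value of any member was 9.26 CPM. Foxp3 was at 2709 and 2667 CPM in monoclonal Treg libraries, while monoclonal non-Treg libraries had 405 and 319, and at 2350 and 2281 CPM in polyclonal Treg libraries, against 81.9 and 84.2 in polyclonal non-Treg libraries. The summed level of 8 T cell markers ran from 4167 to 4170 CPM in monoclonal Treg and from 3343 to 3532 in monoclonal non-Treg libraries. It ran from 4411 to 5375 CPM in polyclonal Treg and from 5014 to 5143 in polyclonal non-Treg libraries. Within the sum the markers went both ways in monoclonal mice. Cd4 averaged 809 CPM in Treg cells against 1308 in non-Treg cells, and Cd3e 742 against 430. The 9 dendritic cell markers summed to 424 to 470 CPM in monoclonal Treg, 1766 to 2021 in monoclonal non-Treg, 16.3 to 20.3 in polyclonal Treg and 38.3 to 45.7 in polyclonal non-Treg libraries. The 9 B cell markers, a lineage that also uses Bach2, Foxp1 and Foxo1, summed to 49.1 to 68.0 CPM in monoclonal Treg, 239 to 289 in monoclonal non-Treg, 28.9 to 45.9 in polyclonal Treg and 46.3 to 69.5 in polyclonal non-Treg libraries, and the B cell factor Ebf1 had 0 reads in every monoclonal library. Myeloid markers reached 260 to 976 CPM in monoclonal Treg and 512 to 627 in monoclonal non-Treg libraries, against 14.5 to 16.5 in polyclonal Treg and 20.4 to 22.6 in polyclonal non-Treg libraries. Their part in the results was not tested, and values scaled to the CD3 genes (Cd3d, Cd3e, Cd3g and Cd247) are given where they change a result. This scaling divided polyclonal Treg A by 0.877 and polyclonal Treg B by 1.27. A call can therefore be lost under it through a wider spread, without a smaller effect.

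In monoclonal mice, Treg cells held less of 5 of the 7 factors than non-Treg cells: Tcf7, Satb1 and Bach2 were 6.80-fold to 9.19-fold lower, and Lef1 and Foxp1 2.15-fold and 2.20-fold lower. Id3 was 3.30-fold higher, and Foxo1 did not pass the test. In polyclonal mice the same division of the cells went with lower Tcf7, Lef1 and Satb1, by 1.86-fold to 2.45-fold, and with higher Id3, while Bach2, Foxp1 and Foxo1 did not pass. The count was 1 higher and 5 lower of 7 in monoclonal mice, where 10.8% of all 12881 genes tested were called higher and 13.6% lower, and 1 higher and 3 lower of 7 in polyclonal mice, where 4.63% were called higher and 3.28% lower (limma on log2(CPM + 1), Benjamini-Hochberg adjusted p under 0.05 over all genes). The median log2 fold change of the members was -1.13 in monoclonal mice, against -0.02 for all genes, and -0.26 in polyclonal mice, against 0.00. The members, and the gene lists below, were chosen with earlier results of these data known. This and later contrasts with all genes are therefore descriptive. The sum of the dendritic cell markers was lower in the Treg libraries of both kinds of mice, with the values given above. In bulk samples, fewer cells with a factor and less of its RNA in each cell cannot be told apart.

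**Figure D1:**
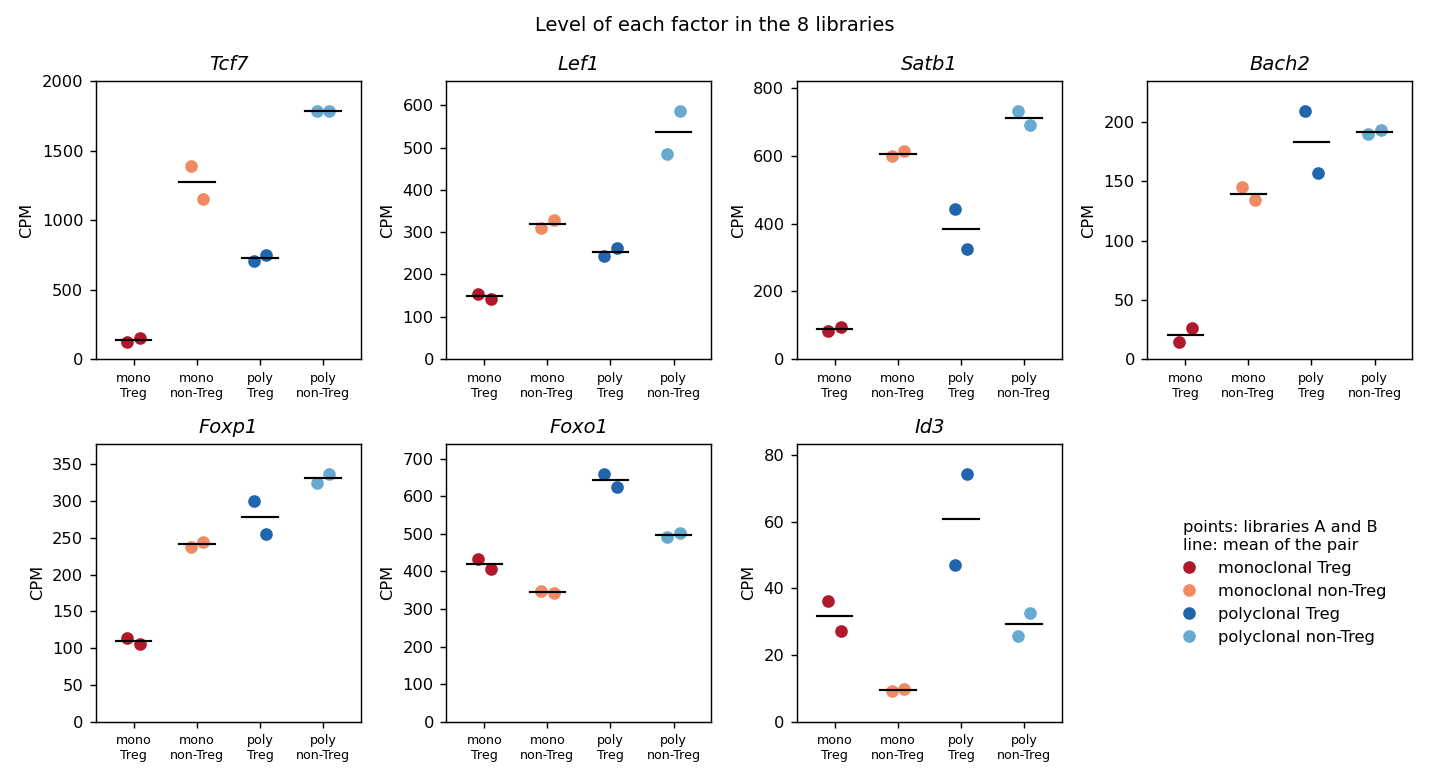
Level of each of the 7 factors in every library, in CPM on a linear axis from 0, by group (monoclonal Treg, monoclonal non-Treg, polyclonal Treg, polyclonal non-Treg); points are libraries A and B and the line is the group mean. Tcf7, Lef1, Satb1, Bach2 and Foxp1 are lowest in the 2 monoclonal Treg libraries. Foxo1 and Id3 are lowest in monoclonal non-Treg libraries, with Id3 at 9.26 and 9.93 CPM.

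Tcf7 (NM_009331, chr11:52066106-52095752, minus strand, mm9), the TCF/LEF factor needed for T cell development and for memory and naive cells, was the most abundant member in non-Treg cells, in CPM and per kilobase. It stood at 123 and 154 CPM in monoclonal Treg libraries, against 1389 and 1154 CPM in the non-Treg libraries of the same mice. In polyclonal mice it stood at 709 and 747 CPM in Treg libraries, against 1787 and 1784 CPM in non-Treg libraries. The 4 groups did not overlap, with monoclonal Treg cells lowest and polyclonal non-Treg cells highest. The Treg effect was -3.19 ± 0.13 on the log2 scale in monoclonal mice (SE, limma adjusted p = 4.59e-09) and -1.29 ± 0.13 in polyclonal mice (limma adjusted p = 1.99e-05). Per kilobase of transcript, mean Tcf7 lay at the 90.3 percentile of tested genes in monoclonal Treg and at the 99.7 percentile in monoclonal non-Treg cells, and at the 99.4 and 99.9 percentiles in polyclonal Treg and non-Treg cells.

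Lef1 (NM_010703, chr3:130813215-130927275, plus strand, mm9) encodes the other TCF/LEF factor of T cells, which shares targets with the product of Tcf7. It had 155 and 142 CPM in monoclonal Treg libraries, against 310 and 329 CPM in monoclonal non-Treg libraries. It had 243 and 262 CPM in polyclonal Treg libraries, against 485 and 587 CPM in polyclonal non-Treg libraries. The order of the groups was that of Tcf7, again with no overlap, but the distance between Treg and non-Treg cells was close to the same in both kinds of mice: -1.10 ± 0.13 log2 in monoclonal mice (limma adjusted p = 3.07e-05) and -1.08 ± 0.13 in polyclonal mice (7.21e-05). The difference of these effects was -0.02, with a 95% interval from -0.41 to 0.36 and a limma adjusted p of 0.957. The ratio of Tcf7 to Lef1, each per kilobase, was 1.31 and 1.78 in monoclonal Treg libraries, against 7.38 and 5.77 in monoclonal non-Treg libraries. It was 4.81 and 4.69 in polyclonal Treg libraries, against 6.06 and 5.003 in polyclonal non-Treg libraries. The 2 monoclonal Treg libraries had the lowest ratios of the 8, and they did not overlap any other group.

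Satb1 (NM_001163630, chr17:51875512-51951379, minus strand, mm9), which folds chromatin into loops at lymphocyte genes, was at 82.4 and 95.8 CPM in monoclonal Treg libraries, against 599 and 613 CPM in monoclonal non-Treg libraries. In polyclonal mice it was at 445 and 324 CPM in Treg libraries, against 733 and 692 CPM in non-Treg libraries. The groups did not overlap, and the polyclonal Treg libraries differed most between A and B. The Treg effect was -2.76 ± 0.15 log2 in monoclonal mice (limma adjusted p = 3.68e-08) and -0.91 ± 0.15 in polyclonal mice (limma adjusted p = 0.000963). Scaled to the CD3 genes, the polyclonal effect was -0.84 with a limma adjusted p of 0.134. That scaling widened the gap between polyclonal Treg A and B.

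Bach2 (NM_001109661, chr4:32504410-32673083, plus strand, mm9), a repressor that limits effector programmes and supports Treg cells, had the largest difference of Treg effects of the 7. It fell to 14.5 and 25.9 CPM in monoclonal Treg libraries, against 145 and 134 CPM in monoclonal non-Treg libraries. In polyclonal Treg libraries it was at 209.5 and 157 CPM, against 190.3 and 193 CPM in polyclonal non-Treg libraries, so these groups overlapped. The effect in monoclonal mice was -2.79 ± 0.22 log2 (limma adjusted p = 9.81e-07), and that in polyclonal mice was -0.08, with a 95% interval from -0.54 to 0.38 and a limma adjusted p of 0.925. The sign of the polyclonal value turned with the library left out, between -0.29 and 0.13. The antisense gene Bach2os overlaps Bach2 and had at most 0.333 CPM, and whether strand was used at counting is not stated.

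The target most often named for repression by the Bach2 protein is Prdm1, a factor of effector cells, which lies outside the rule for named genes and was chosen after its values were seen. Prdm1 averaged 104 ± 0.766 CPM in monoclonal Treg cells, against 25.6 ± 2.43 in monoclonal non-Treg cells, and 45.9 ± 5.09 in polyclonal Treg cells, against 23.0 ± 0.0856 in polyclonal non-Treg cells (SD, n = 2 each). Bach2 per kilobase was 0.0836 and 0.152 of Prdm1 in monoclonal Treg libraries, against 3.69 and 2.97 in monoclonal non-Treg libraries. In polyclonal mice the ratio was 2.99 and 1.92 in Treg libraries, against 4.98 and 5.09 in non-Treg libraries. Only in monoclonal Treg libraries did Prdm1 exceed Bach2 per kilobase.

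Foxp1 (NM_053202, chr6:98875336-99385339, minus strand, mm9), a forkhead factor that restrains activation of naive T cells, was at 114 and 105 CPM in monoclonal Treg libraries, against 238 and 245 CPM in monoclonal non-Treg libraries. It was at 299.7 and 256 CPM in polyclonal Treg libraries, against 325 and 338 CPM in polyclonal non-Treg libraries. Both pairs of groups were apart, but only the monoclonal effect passed the test, at -1.13 ± 0.12 log2 (limma adjusted p = 1.99e-05). The polyclonal effect was -0.26, with a 95% interval from -0.52 to 0.01 and a limma adjusted p of 0.29.

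Foxo1 (NM_019739, chr3:52072259-52154031, plus strand, mm9), which drives homing and survival genes and is held out of the nucleus by growth signals, was at 433 and 407 CPM in monoclonal Treg libraries, against 349 and 344 CPM in monoclonal non-Treg cells. It was at 661 and 624 CPM in polyclonal Treg libraries, against 493 and 504 CPM in polyclonal non-Treg libraries. Within each kind of mouse the Treg libraries were above the non-Treg libraries, yet neither effect passed: 0.28 log2 in monoclonal mice (95% interval 0.05 to 0.51, limma adjusted p = 0.079) and 0.37 in polyclonal mice (95% interval 0.13 to 0.60, limma adjusted p = 0.0556). The monoclonal value turned to -0.20 when libraries were scaled to the CD3 genes (limma adjusted p = 0.579). Foxo1 was called in monoclonal mice without polyclonal Treg A (0.0179) or B (0.0176), and in polyclonal mice with DESeq2 (0.0127) or without polyclonal Treg B (limma adjusted p = 0.018). The ratio of Foxo1 to Foxp1 per kilobase was 4.88 and 4.99 in monoclonal Treg libraries, against 1.89 and 1.81 in their non-Treg counterparts, and 2.84 and 3.14 in polyclonal Treg libraries, against 1.96 and 1.92 in polyclonal non-Treg libraries.

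Id3 (NM_008321, chr4:135699737-135701307, plus strand, mm9), the inhibitor of E proteins, was the 1 member called higher in Treg cells of both kinds of mice. It stood at 36.1 and 27.3 CPM in monoclonal Treg libraries, against 9.26 and 9.93 CPM in monoclonal non-Treg libraries. It stood at 47.0 and 74.4 CPM in polyclonal Treg libraries, against 25.8 and 32.5 CPM in polyclonal non-Treg libraries. The Treg and non-Treg libraries were apart in both, with a gap of 0.65 log2 between the polyclonal Treg libraries. The effect was 1.61 ± 0.26 log2 in monoclonal mice (limma adjusted p = 0.000422) and 1.01 ± 0.26 in polyclonal mice (limma adjusted p = 0.0262). The polyclonal call was lost when only the libraries compared were fitted (0.0852). It was also lost without polyclonal Treg B (0.68 log2, limma adjusted p = 0.173), without polyclonal non-Treg A (0.287) or B (0.0922), and, through the shared spread, without monoclonal non-Treg A (0.0531) or B (0.0539).

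Id2, the related inhibitor that acts in effector and innate-like cells, was lower in Treg cells of both kinds of mice. It averaged 67.7 ± 11.6 CPM in monoclonal Treg cells, against 115 ± 25.0 in monoclonal non-Treg cells, and 37.7 ± 2.48 CPM in polyclonal Treg cells, against 174 ± 13.3 in polyclonal non-Treg cells (SD, n = 2 each). The log2 effects were -0.75 ± 0.18 (limma adjusted p = 0.00699, lost without monoclonal Treg B, at 0.12, or without monoclonal non-Treg A) and -2.18 ± 0.18 (limma adjusted p = 2.79e-06). The ratio of Id3 to Id2 per kilobase was 0.635 and 0.614 in monoclonal Treg libraries, against 0.0933 and 0.136 in monoclonal non-Treg cells, and 1.75 and 2.52 in polyclonal Treg libraries, against 0.209 and 0.237 in polyclonal non-Treg libraries. Id3 exceeded Id2 per kilobase in polyclonal Treg cells alone among the 4 groups.

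**Figure D2:**
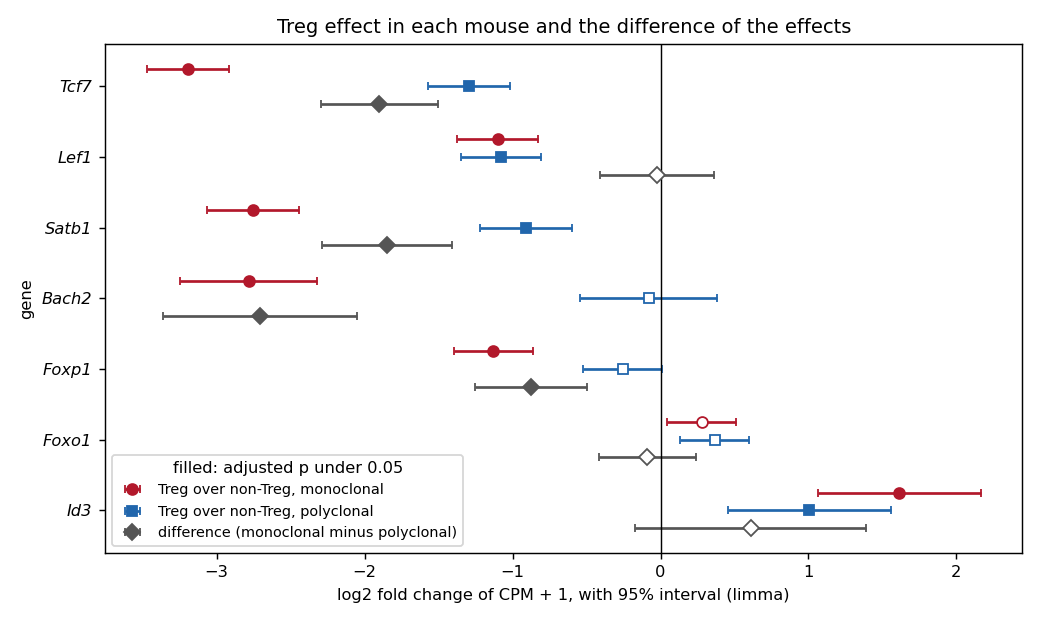
Treg effect (log2 fold change of CPM + 1, Treg over non-Treg) of each factor in monoclonal mice (circles) and in polyclonal mice (squares), and the difference of the effects (diamonds); bars are 95% intervals from limma and filled symbols have an adjusted p under 0.05. Lef1 sits at -1.10 and -1.08, whereas Bach2 sits at -2.79 in monoclonal and -0.08 in polyclonal mice.

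Whether the Treg effect differed between the mice was tested for each gene as an interaction, monoclonal effect minus polyclonal effect. Of the 7 members, 4 had a lower effect in monoclonal mice and 0 a higher one, where 5.56% of all genes were called lower and 3.64% higher; the median was -0.87 log2, against -0.03 for all genes. The difference was -2.71 ± 0.31 for Bach2 (limma adjusted p = 0.0001), -1.90 ± 0.18 for Tcf7 (3.52e-05), -1.85 ± 0.21 for Satb1 (9.25e-05) and -0.87 ± 0.18 for Foxp1 (0.00657). Lef1, Foxo1 and Id3 did not pass. Their differences were -0.02, -0.09 (95% interval -0.42 to 0.24, limma adjusted p = 0.784) and 0.61 (95% interval -0.17 to 1.39, limma adjusted p = 0.34), so a difference in Id3 as large as 1.39 log2 is within its interval. The Foxp1 call was lost without monoclonal non-Treg B (limma adjusted p = 0.0592) or polyclonal non-Treg A (0.0527). Scaling to the CD3 genes shifted the median of all genes by -0.50 log2 in this comparison and -0.44 in the monoclonal effect, and under it, with 9.34% of all genes called lower and 0.621% higher, the 4 calls held, at -3.23 for Bach2, -2.44 for Tcf7, -2.39 for Satb1 and -1.41 for Foxp1.

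Between the Treg cells of the mice, monoclonal against polyclonal, all 7 factors were lower in monoclonal cells, where 12.1% of all genes were called lower and 12.1% higher. The fold was 9.08 for Bach2, 5.26 for Tcf7, 4.31 for Satb1, 2.53 for Foxp1, 1.92 for Id3, 1.70 for Lef1 and 1.53 for Foxo1. The log2 fold changes from the fit were -3.16 ± 0.22 for Bach2 (limma adjusted p = 1.15e-07), -2.40 ± 0.13 for Tcf7 (1.93e-08), -2.08 ± 0.15 for Satb1 (1.36e-07) and -1.33 ± 0.12 for Foxp1 (2.91e-06). Lef1 was at -0.76 ± 0.13 (limma adjusted p = 0.000559). No library of monoclonal Treg cells reached the lower polyclonal Treg library for any of the 7. Id3, at -0.89 ± 0.26 (limma adjusted p = 0.021), did not pass when only the libraries compared were fitted (0.0537), or without monoclonal Treg B (0.12) or polyclonal Treg B (0.149). Foxo1, at -0.61 ± 0.11 (limma adjusted p = 0.000914), did not pass under CD3 scaling, though its value was -0.66 (limma adjusted p = 0.0962). Under that scaling 6.18% of all genes were called lower and 7.76% higher.

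Between the non-Treg cells, monoclonal against polyclonal, Id3 and Lef1 had the largest changes and Satb1 and Bach2 did not pass the test. Of the 7, 5 were lower and 0 higher in monoclonal cells, where 7.35% of all genes were called lower and 12.1% higher. Id3 was 3.04-fold lower (-1.50 ± 0.26 log2, limma adjusted p = 0.000606) and Lef1 1.68-fold lower (-0.74 ± 0.13, limma adjusted p = 0.000623), followed by Foxo1 at 1.44-fold, Tcf7 at 1.40-fold and Foxp1 at 1.37-fold. The Tcf7 call (-0.50 ± 0.13, limma adjusted p = 0.0141) was lost without monoclonal non-Treg B (-0.36 log2, 0.225) or polyclonal non-Treg A (0.112) or B (0.111), and with edgeR (0.0551). The Foxp1 call (-0.45 ± 0.12, limma adjusted p = 0.0182) was lost without any of the 4 non-Treg libraries (0.106 to 0.173) and with edgeR (0.0644), and that of Foxo1 (-0.52 ± 0.11, limma adjusted p = 0.00274) without polyclonal non-Treg B (0.0548). Satb1 was at -0.23 (95% interval -0.54 to 0.08, limma adjusted p = 0.315) and Bach2 at -0.46 (95% interval -0.92 to 0.01, limma adjusted p = 0.171). Both were called when only the libraries compared were fitted (0.0188 for Satb1 and 0.000969 for Bach2), and Bach2 without monoclonal Treg A (limma adjusted p = 0.0496). Monoclonal non-Treg libraries held fewer T cell marker reads and more dendritic cell marker reads than polyclonal ones, with the values above. Under CD3 scaling, which moved the median of all genes by 0.45 log2 here, with 0.97% of all genes called lower and 18.6% higher, Id3 alone of the 7 was called (-1.05, limma adjusted p = 0.00991), and Tcf7 was at -0.01 (0.987). Per unit of Cd3e, each per kilobase, Tcf7 was 1.97 and 1.83 in non-Treg libraries of monoclonal mice, against 1.85 and 1.74 in those of polyclonal mice, which overlap. Id3 on that scale was 0.0307 and 0.0368 in non-Treg libraries of monoclonal mice, against 0.0623 and 0.0742 in those of polyclonal mice, with no overlap.

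**Figure D3:**
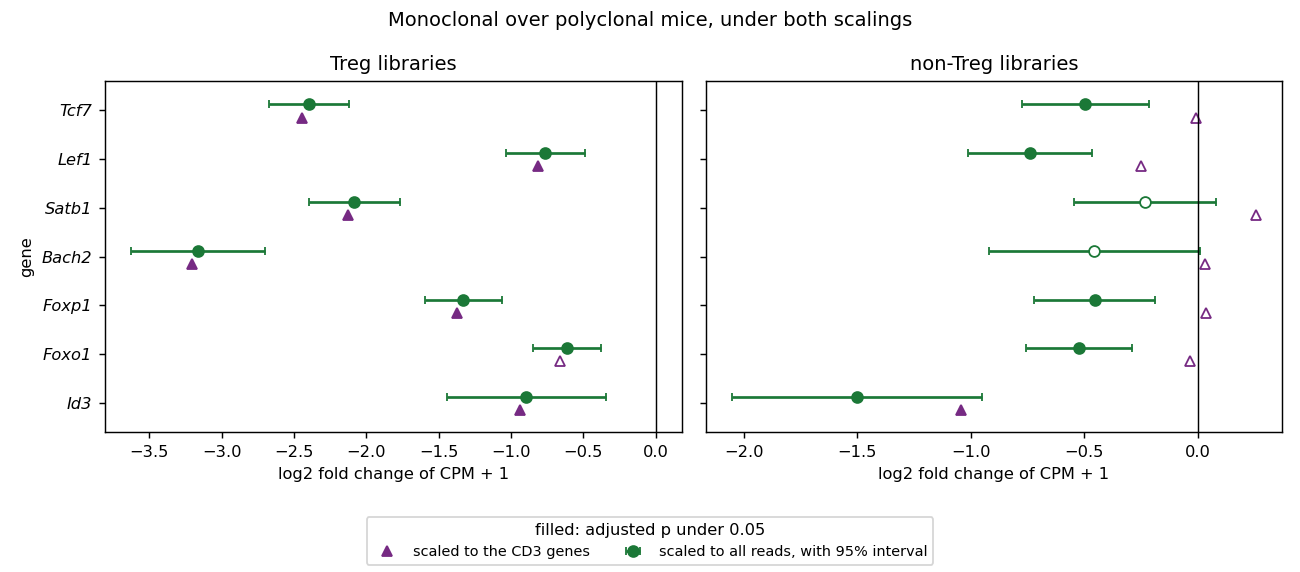
Monoclonal over polyclonal log2 fold change of each factor within Treg and within non-Treg cells, scaled to all reads (circles, with 95% intervals from limma) and to the CD3 genes (triangles); filled symbols have an adjusted p under 0.05. In Treg cells Bach2 stands at -3.16 and -3.20 under these scalings, whereas in non-Treg cells Tcf7 stands at -0.50 and -0.01.

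**Figure D4:**
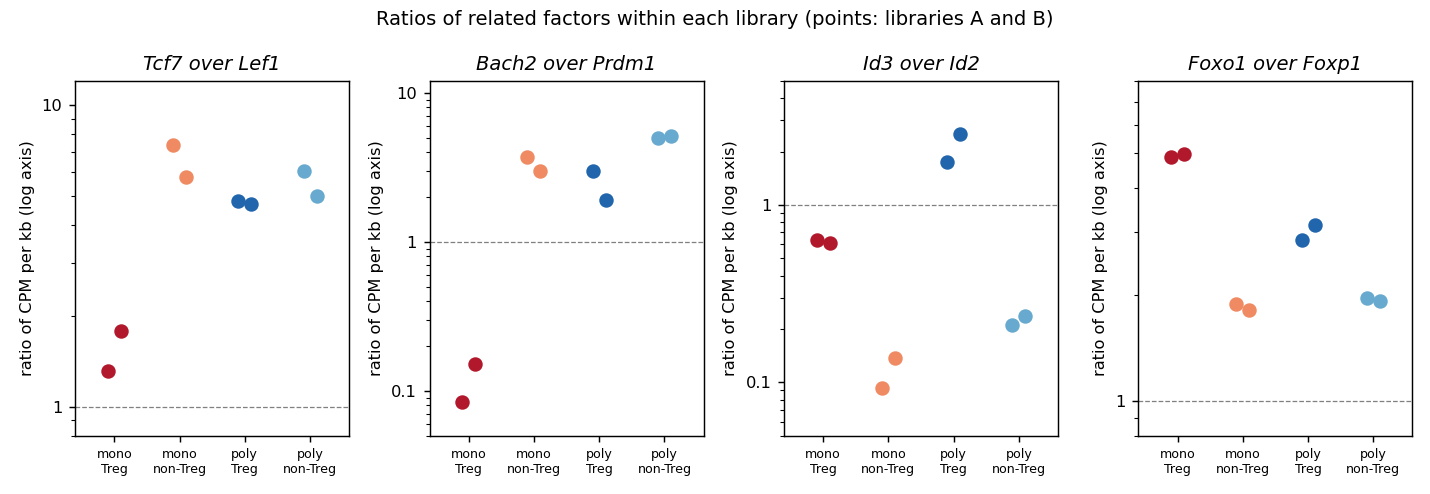
Ratios of CPM per kilobase for 4 pairs of genes, on a log axis; points are libraries A and B of each group and the dashed line is a ratio of 1. Tcf7 over Lef1 lies at 1.31 and 1.78 in monoclonal Treg libraries and at 4.69 to 7.38 in all others, and Bach2 over Prdm1 is below 1 in monoclonal Treg libraries and above 1 in the rest.

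Genes that work with these factors did not follow them as a block. Their counts are read against the shares of all genes given above and, under CD3 scaling, against 3.28% higher and 24.1% lower in monoclonal and 2.81% higher and 1.48% lower in polyclonal mice. Of 13 partners, relatives and readouts of the TCF/LEF factors, 3 were higher and 2 lower in Treg cells of monoclonal mice (median 0.06 log2), and 1 was higher and 3 lower in polyclonal mice (median -0.18). Under CD3 scaling 2 were higher and 2 lower in monoclonal and 1 higher and 0 lower in polyclonal mice. Axin2, a feedback target of β-catenin signalling, rose to 220 ± 28.2 CPM in monoclonal Treg cells, against 78.8 ± 2.07 in monoclonal non-Treg cells (1.46 ± 0.14 log2, limma adjusted p = 5.04e-06). In polyclonal mice it was at 100.2 ± 8.03 CPM in Treg cells, against 166 ± 5.98 in non-Treg cells (-0.73 ± 0.14 log2, limma adjusted p = 0.00347, not called under CD3 scaling, at 0.231, or without polyclonal non-Treg B). Of the 4 groups, the monoclonal Treg cells had the highest mean Axin2 and the lowest mean Tcf7. Bcl9, a β-catenin coactivator, was lower in monoclonal Treg cells (-1.70 ± 0.19, limma adjusted p = 1.99e-05) and at -0.25 in polyclonal mice (limma adjusted p = 0.562). Tcf7l1, a repressor of the family, rose in both, by 2.03 ± 0.40 log2 (limma adjusted p = 0.00213) and 1.67 ± 0.40 (0.0181). The monoclonal call was lost without monoclonal non-Treg B (0.0574), and the polyclonal call when only the libraries compared were fitted and without polyclonal Treg B or polyclonal non-Treg B (limma adjusted p up to 0.261).

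Of 7 forkhead relatives with enough reads out of 10 listed, 1 rose and 1 fell in monoclonal Treg cells, and 1 rose and 0 fell in polyclonal Treg cells, and in monoclonal mice these counts are near the shares of all genes (10.8% and 13.6%). They were Foxo4 (0.41 ± 0.14 log2, limma adjusted p = 0.0491, and -0.06 under CD3 scaling) and Foxk1 (-0.43 ± 0.12, limma adjusted p = 0.014) in monoclonal mice, and Foxp4, a relative of Foxp1 (0.59 ± 0.14, limma adjusted p = 0.0143), in polyclonal mice. The Foxo4 call was lost under 13 of 15 alternatives, edgeR and DESeq2 among them. That of Foxk1 was lost without monoclonal Treg B or either monoclonal non-Treg library, and that of Foxp4 when only the libraries compared were fitted, under CD3 scaling, and without polyclonal Treg B or either polyclonal non-Treg library (limma adjusted p up to 0.242). Under CD3 scaling 0 were higher and 2 lower in monoclonal mice and 0 were called in polyclonal mice. Of 5 tested E protein and Id genes, 0 rose and 2 fell in monoclonal mice and 0 rose and 1 fell in polyclonal mice, with the same counts under CD3 scaling. Besides Id2, Tcf4, an E protein abundant in plasmacytoid dendritic cells and B cells, fell by 2.07 on the log2 scale in monoclonal Treg cells (± 0.39, limma adjusted p = 0.00146, lost with no filter on low values, at 0.0778), and dendritic cell markers were lower in the same libraries. Of 7 partners of the Bach2 and Satb1 proteins, 3 fell in monoclonal mice, among them Mafk, a small Maf protein that pairs with Bach2 (-0.89 ± 0.17, limma adjusted p = 0.00187), and Maff (-2.11 ± 0.43, limma adjusted p = 0.00248). In polyclonal mice 1 of the 7 rose, the histone deacetylase Hdac1 (0.97 ± 0.28, limma adjusted p = 0.0495), and that call was lost under 10 of 15 alternatives, edgeR and the pseudocount of 0.25 CPM among them (adjusted p up to 0.337). Under CD3 scaling 0 were higher and 3 lower in monoclonal mice and 0 were called in polyclonal mice. Maff averaged 11.96 CPM in monoclonal non-Treg cells, against 2.17 in monoclonal Treg, 2.44 in polyclonal Treg and 2.23 in polyclonal non-Treg cells. The summed dendritic cell markers were also highest in monoclonal non-Treg libraries, and their part in the Maff change was not tested.

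Of 15 surface genes and Foxo1 targets of naive cells, 4 were higher and 7 lower in monoclonal Treg cells, and 0 were higher and 9 lower in polyclonal Treg cells (medians -0.39 and -0.83 log2). Under CD3 scaling 2 were higher and 8 lower in monoclonal and 0 higher and 5 lower in polyclonal mice. Dapl1 and Igfbp4, which mark naive CD4+ cells, were lower in both. Dapl1 changed by -4.20 ± 0.41 log2 in monoclonal mice (limma adjusted p = 6.72e-06) and -3.73 ± 0.41 in polyclonal mice (3.81e-05), and Igfbp4 by -4.06 ± 0.17 (limma adjusted p = 4.59e-09) and -2.59 ± 0.17 (3.97e-07). Il7r, the receptor for the survival cytokine IL-7 and a Foxo1 target, was higher in monoclonal Treg cells, at 1253 ± 57.4 CPM, against 487 ± 33.6 in monoclonal non-Treg cells (1.36 ± 0.12 log2, limma adjusted p = 3.47e-06). In polyclonal mice it was lower, at 196 ± 22.2 CPM in Treg cells, against 848 ± 79.0 in non-Treg cells (-2.11 ± 0.12 log2, limma adjusted p = 9.76e-08). The difference of these effects was 3.47 log2 (limma adjusted p = 1.39e-07). Cdkn1b, an inhibitor of the cell cycle and also a Foxo1 target, was at 440.3 ± 13.2 CPM in monoclonal Treg cells, against 163 ± 27.97 in monoclonal non-Treg cells (1.44 ± 0.13, limma adjusted p = 4.78e-06), and did not pass in polyclonal mice (-0.14, limma adjusted p = 0.69).

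S1pr1, the receptor for exit from lymphoid organs, was called in opposite directions, at 0.51 ± 0.11 log2 in monoclonal mice (limma adjusted p = 0.00329) and -0.52 ± 0.11 in polyclonal mice (0.00704), but under CD3 scaling the values were 0.04 (0.914) and -0.45 (0.479). The monoclonal call was also lost without monoclonal non-Treg B, and the polyclonal call when only the libraries compared were fitted and without either polyclonal non-Treg library. Of 15 quiescence regulators, 0 were higher and 4 lower in monoclonal and 0 higher and 3 lower in polyclonal Treg cells; Runx3 was lower in both (-0.91 ± 0.14, limma adjusted p = 0.000302, and -0.60 ± 0.14, 0.0138, the polyclonal call lost under CD3 scaling and without polyclonal non-Treg A or B), and Klf4 was lower in monoclonal mice (-2.17 ± 0.40, limma adjusted p = 0.00133). Klf4 averaged 43.7 CPM in monoclonal non-Treg and 9.06 in monoclonal Treg cells, and less in both polyclonal groups. The summed dendritic cell markers were also highest in monoclonal non-Treg libraries, and their part in the Klf4 change was not tested. Under CD3 scaling 0 of the 15 were higher and 5 lower in monoclonal mice, and 0 were called in polyclonal mice.

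Of 13 factors of effector cells, 7 were higher and 3 lower in monoclonal Treg cells and 8 higher and 2 lower in polyclonal Treg cells (medians 0.83 and 0.60 log2). Under CD3 scaling 6 were higher and 6 lower in monoclonal and 5 higher and 2 lower in polyclonal mice. Among the 3 lower in monoclonal mice without that scaling were Id2, described above, and Zeb2 (-2.29 ± 0.50 log2, limma adjusted p = 0.00411). Zeb2 averaged 65.2 CPM in monoclonal non-Treg and 13.1 in monoclonal Treg cells, against 7.16 in polyclonal non-Treg and 4.49 in polyclonal Treg cells. Dendritic cell markers were highest in the same monoclonal non-Treg libraries, and their part was not tested. Maf, which drives cytokine genes, averaged 225 ± 37.9 CPM in monoclonal Treg cells, against 28.2 ± 5.59 in monoclonal non-Treg cells (2.96 ± 0.16 log2, limma adjusted p = 3.68e-08). Rora, which acts in helper cells and Treg cells, was at 485 ± 39.9 CPM in monoclonal Treg cells, against 84.7 ± 5.38 in monoclonal non-Treg cells (2.50 ± 0.19, limma adjusted p = 8.12e-07). In polyclonal Treg cells the aryl hydrocarbon receptor gene Ahr rose (1.11 ± 0.23, limma adjusted p = 0.00757) and Tbx21, the factor of helper cells that make interferon-γ, fell (-1.38 ± 0.26, limma adjusted p = 0.00355). The Ahr call was lost without polyclonal non-Treg A (limma adjusted p = 0.106) and the Tbx21 call without polyclonal non-Treg B (0.0861). Nfil3 rose in both (1.82 ± 0.34, limma adjusted p = 0.00152, and 1.66 ± 0.34, 0.00661), the polyclonal call being lost without polyclonal non-Treg A or B (limma adjusted p up to 0.0701).

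Likeness of pattern over the 8 libraries was measured as the root mean square difference of log2(CPM + 1), each gene centred on its own mean, over 8870 genes averaging at least 10 CPM. The nearest gene to Tcf7 was Ccr7, the homing receptor of naive cells, at 0.199 (Tcf7 itself spread by 1.42), and Ccr7 was also second to Satb1, at 0.314, after Amigo2, at 0.244. Bach2 was nearest to Per2, at 0.312, Lef1 to Clip1, at 0.153, Foxp1 to Asap1, at 0.0745, Foxo1 to Ezh2, at 0.0753, and Id3 to Cd200, at 0.275. Genes that vary little, such as Foxo1 with a spread of 0.329, find near neighbours more easily. Among the members the closest pair was Tcf7 and Satb1, at 0.296, followed by Lef1 and Foxp1, at 0.316, and the most distant was Tcf7 and Id3, at 1.91.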

How the data were processed

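RNA was measured in 8 libraries of CD4+ T cells, 2 in each of 4 groups. Poly-dT beads enriched the messenger RNA, and stranded libraries gave single-end reads of 50 bases, per the labels' protocols. The submitters' processing notes list STAR 2.4.1a, Trimmomatic 0.33, HOMER 4.7, CASAVA 1.8.2, edgeR, FastQC 0.10.1 and the build mm9, without their roles. The authors deposited 1 table of CPM, reads per 1000000 assigned to genes. Of its values, 100% were whole multiples of 1 read within 0.01 read, so reads were recovered for the count tests, and no per-sample column was unused.

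The main test was limma 3.58.1 (R 4.3.3) on log2(CPM + 1), with trend and robust spread and 4 group means over all 8 libraries (4 residual degrees of freedom). The design named edgeR only for whole counts. The 12881 genes that reached 1 CPM in 2 or more libraries were kept. Tests were 2-sided, p-values were adjusted by Benjamini-Hochberg over those genes with a threshold of 0.05, and 5 comparisons were made. Log2 fold changes are on the log2(CPM + 1) scale, which understates low genes. Values given as a fold are ratios of group mean CPM, so they can differ from the log2 values. Errors are SE for log2 fold changes and SD for CPM. The fit was tested on simulated data.

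All members are named. Of the gene lists, the 2 largest called changes each way per Treg effect were eligible to be named, with genes called in opposite directions. The 3 genes nearest each member were found. Members and lists were chosen with earlier results of these data known. Alternatives were a pseudocount of 0.25 CPM, no filter, edgeR 4.0.16 and DESeq2 1.42.0 on recovered reads, only the libraries compared, a replicate block, scaling to the CD3 genes and each library left out. Promoters came from RefSeq (GRCm38.p6); all 7 members matched.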

Additional observations from a re-analysis of the deposited data

Results flagged for a closer look

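The effect of being a Treg cell differed between monoclonal and polyclonal mice for 4 of the 7 factors by the interaction term of the limma fit. The difference, monoclonal minus polyclonal effect, was -2.71 log2 for Bach2, -1.90 for Tcf7, -1.85 for Satb1 and -0.87 for Foxp1. In each case the Treg cells of monoclonal mice were further below their non-Treg cells. Dendritic cell markers summed to 424 to 470 CPM in monoclonal Treg libraries, against 1766 to 2021 CPM in monoclonal non-Treg libraries, and to 16.3 to 20.3 CPM in polyclonal Treg libraries, against 38.3 to 45.7 CPM in polyclonal non-Treg libraries. Of these 9 markers, 1 was called in the difference of effects, and their part in it was not tested. Groups of 2 libraries are too small for a check of outlying samples.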

How the results depend on the processing

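The members called were 6, 4, 4, 7 and 5 in the monoclonal Treg effect, the polyclonal Treg effect, their difference, and monoclonal against polyclonal Treg and non-Treg cells. With 1 library left out these ran from 6 to 7, 3 to 4, 3 to 4, 6 to 7 and 2 to 6. The genes called in the same 5 comparisons ran from 1306 to 3774, 429 to 1231, 361 to 1658, 2416 to 3583 and 1373 to 3227, against 3143, 1018, 1185, 3116 and 2505 with all libraries. Omitting a non-Treg library lowered these counts most: without monoclonal non-Treg A or B the monoclonal effect had 1879 and 1306 genes, the difference 579 and 361 and the non-Treg comparison 1627 and 1373, and without polyclonal non-Treg A or B the polyclonal effect had 469 and 429, the difference 547 and 490 and the non-Treg comparison 1426 and 1409. The non-Treg comparison was the least stable: edgeR called 3 members, scaling to the CD3 genes called 1, and leaving out monoclonal non-Treg B, polyclonal non-Treg A or polyclonal non-Treg B left 3, 3 and 2. Of 518 results of a member under an alternative, 476 kept direction and call, 26 lost the call, 7 gained it and 9 reversed. Scaling to the CD3 genes reversed Foxo1 in the monoclonal effect (-0.20) and Satb1 (0.26), Bach2 (0.030) and Foxp1 (0.034) between non-Treg cells. Omitting a library reversed the polyclonal Bach2 effect (-0.29 to 0.13) and the Lef1 difference (-0.16 to 0.11). Fitting only the libraries compared gave 673 genes in the polyclonal effect, 1721 between Treg and 4413 between non-Treg cells, and CD3 scaling gave 553 in the polyclonal effect and 1796 between Treg cells. CD3 scaling moved the split of higher and lower calls to 422 and 3106 in the monoclonal effect, against 1396 and 1747 as deposited, to 80 and 1203 in the difference, against 469 and 716, and to 2395 and 125 between non-Treg cells, against 1558 and 947. Libraries of the same letter did not deviate together (correlations -0.0930 to 0.0969), and the replicate block left the members called at 6, 4, 4, 7 and 5 and gave 3032, 945, 1094, 2969 and 2393 genes. The causes were not tested. With 2 libraries a group the estimates are imprecise: the 95% interval of the Id3 difference ran from -0.17 to 1.39 log2.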

Other observations

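Within the 15 surface genes and Foxo1 targets of naive cells, the difference of the Treg effects, monoclonal minus polyclonal, was called higher for 5 and lower for 5; the genes in this paragraph beyond those already described were chosen after their values were seen. Il7r, Cdkn1b, Klf2, Cd55 and S1pr1 were the 5 higher, with Klf2, a factor that drives exit and homing receptors, at 605 ± 36.4 CPM in monoclonal Treg cells, against 473 ± 34.1 in monoclonal non-Treg cells, and at 304 ± 70.8 in polyclonal Treg cells, against 557 ± 83.5 in polyclonal non-Treg cells (SD, n = 2 each). Among the 5 lower were Ccr7, Actn1, Igfbp4 and Pik3ip1. The difference of effects of Klf2 was 1.24 log2 (limma adjusted p = 0.00299), and 0.71 under scaling to the CD3 genes (0.176). Under that scaling 1 of the 15 was called higher, Il7r, and 5 lower.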
